A study of Mus musculus with 12 samples.

Results

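Krt8, Krt18, Krt19 and Cgn were followed across 4 lines of 6DT1 cells, a mouse mammary cancer line from a tumor of a mouse carrying the MMTV-Myc transgene. They were chosen by symbol, with earlier results of these data known, as the simple epithelial keratins and a tight junction protein held by the deposited table. These are 4 of the table's 982 genes. The libraries fall into 4 groups of 3. The sgControl line is labelled wild type and carries a scrambled guide, while the sg1, sg2 and sg3 lines are labelled Resf1 KO and each carry a different CRISPR guide against Resf1, the gene of retroelement silencing factor 1. All 4 lines share the 6DT1 background and its Myc transgene, which is driven by the mouse mammary tumor virus promoter. Per the study's methods the edited lines were grown from single cells and dishes were seeded in triplicate, so each edited line is 1 clone, its 3 libraries are dishes of that clone, and a guide and the clone that carries it cannot be told apart. P-values therefore measure the spread between dishes.

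Keratins are the intermediate filament proteins of epithelial cells. A filament is built from pairs of a type II and a type I chain, and in simple epithelia, such as the luminal layer of the mammary gland, the usual pair is Krt8 (type II) with Krt18 (type I). Krt19 is a further type I keratin of simple epithelia that also pairs with Krt8, and all 3 are widely used to mark luminal cells and carcinomas of luminal origin. Cgn encodes cingulin, which lies on the cytoplasmic face of tight junctions, where it binds zonula occludens proteins and actomyosin.

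Krt8 and Krt18 are neighbours on chromosome 15 and differed between lines in a like way, so the start of each gene is shown, with that of Cgn, the member that differed most between lines. The windows run from 250 bases before to 50 bases after the RefSeq start in GRCm38.p6 and are written 5′ to 3′ on the gene's own strand. Capitals mark matches, on either strand, to TATAAA (the TATA box), GGGCGG (the GC box bound by Sp factors), CACCTG (the E box bound by Snail and Zeb factors) and CACGTG (the E box bound by MYC and its partner MAX). The Krt8 window is chr15:102004293-102004592 on the minus strand, that of Krt18 is chr15:102027966-102028265 on the plus strand, and that of Cgn is chr3:94786433-94786732 on the minus strand.
Krt8: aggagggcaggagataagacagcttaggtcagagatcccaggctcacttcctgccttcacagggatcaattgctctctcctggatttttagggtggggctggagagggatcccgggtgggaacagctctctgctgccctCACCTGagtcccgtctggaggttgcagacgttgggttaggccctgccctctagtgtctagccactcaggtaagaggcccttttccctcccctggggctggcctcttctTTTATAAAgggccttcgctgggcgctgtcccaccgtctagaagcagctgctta
Krt18: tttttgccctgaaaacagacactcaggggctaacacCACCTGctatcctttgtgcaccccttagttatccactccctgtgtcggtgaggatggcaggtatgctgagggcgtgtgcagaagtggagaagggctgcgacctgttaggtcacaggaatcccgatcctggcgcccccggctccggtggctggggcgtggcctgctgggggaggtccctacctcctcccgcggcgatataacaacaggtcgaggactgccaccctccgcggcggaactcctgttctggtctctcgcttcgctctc
Cgn: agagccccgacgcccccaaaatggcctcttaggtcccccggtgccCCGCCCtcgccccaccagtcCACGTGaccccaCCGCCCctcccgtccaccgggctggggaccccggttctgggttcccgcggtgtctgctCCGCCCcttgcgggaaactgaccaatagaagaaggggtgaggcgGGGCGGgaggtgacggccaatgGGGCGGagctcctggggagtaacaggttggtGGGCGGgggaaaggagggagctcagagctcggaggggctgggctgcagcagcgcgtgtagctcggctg

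The Krt8 and Krt18 windows lie 23373 bases apart and point away from each other. The Krt8 window held 1 CACCTG, 111 bases before the start, and a run in which TATAAA was matched on both strands with overlap, from 3 bases before the start. The GENCODE annotation places the Krt8 start 140 bases further upstream than RefSeq does, so these distances depend on the annotation. The Krt18 window held 1 CACCTG, 214 bases before the start, and no TATAAA. The Cgn window, with 70.3% GC against a median of 52.7% over all windows, held 6 GGGCGG and 1 CACGTG. Of the 32851 windows of this length in the RefSeq table, 20.2% held CACCTG, 13.6% TATAAA, 35.7% GGGCGG and 7.15% CACGTG. Krt19 had no window there.

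The values below are a normalized signal, the authors' estimated reads of a gene divided by 1 size factor per library. Divided by the length of the longest annotated transcript, the sgControl signal per kilobase was 4025 ± 95.9 (SD, n = 3) for Krt18, 3174 ± 95.2 for Krt8, 314 ± 41.7 for Krt19 and 8.96 ± 1.15 for Cgn. The type II chain Krt8 and its type I partner Krt18 were therefore within 1.5 times of each other per length, Krt19 stood well below both, and Cgn was a low transcript in this line. Luminal and adhesion markers such as Cdh1 and Epcam could not be set beside them, since none of the 32 genes on that list was among the 982 genes and they are not analysed here.

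Each guide line was compared with sgControl, and the guide lines with each other, to ask whether the lines differ from the control and whether they do so alike. In signal, all 4 members were highest with sg1, next in sgControl, then with sg2 and lowest with sg3. Of all 982 genes, 3.67% had group means in that order. The members were chosen with earlier results of these data known, so such shares describe them and test nothing. The first neighbours in the order, sg1 and sgControl, differed for each member in limma, as did sg2 and sg3. The levels of sgControl and sg2 were not told apart for Krt8 and Krt18, except that both were called lower with sg2 when the values were scaled to the table total. All 4 members were higher with sg1 and lower with sg3 at an adjusted p of at most 0.05 in limma, which held for 5.6% of the table (55 genes). Under each of 4 other scalings Krt19 lost its sg1 call, which left 3 members with both calls. Taken 1 direction at a time, 50.1% of the table was higher with sg1, 33.4% was lower with sg3 and 29.4% was lower with sg2. Both comparisons share the 3 control libraries, and in bulk RNA fewer cells of a type and less RNA per cell cannot be told apart.

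**Figure D1:**
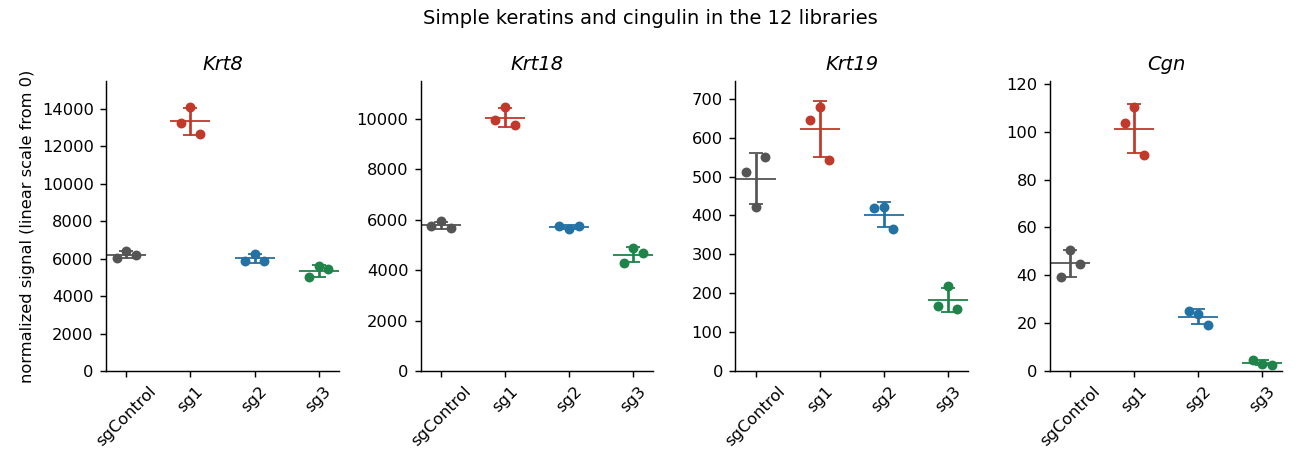
Normalized signal of Krt8, Krt18, Krt19 and Cgn in each of the 12 libraries, on linear axes from 0. Points are libraries, and lines and bars are the mean and SD of 3 libraries. In each panel sg1 has the highest mean and sg3 the lowest, and the Cgn values with sg3 lie between 2.74 and 4.66.

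Krt8, the type II chain, had a signal of 6051, 6418 and 6177 in the 3 sgControl libraries and 13254, 14087 and 12660 with sg1. It was 5886, 6279 and 5891 with sg2 and 5011, 5613 and 5439 with sg3. The sg1 libraries all lay far above the others, the sg2 range overlapped that of sgControl, and the sg3 range lay below both. Krt8 was 2.14-fold higher with sg1 (log2 fold change 1.10, SE 0.05, adjusted p = 1.57e-11, limma) and reduced 1.16-fold with sg3 (-0.22 on the log2 scale, SE 0.05, adjusted p = 0.00324, limma). The difference between sg2 and sgControl was -0.05 with a 95% interval of -0.16 to 0.07 on the log2 scale (adjusted p = 0.45, limma). The fall with sg3 was small beside the rise with sg1, and sg2 exceeded sg3 by only 0.17 on the log2 scale (adjusted p = 0.0231, limma), a call that was lost in 6 of 23 alternatives, as given in the closing section.

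Krt18, the type I partner, followed the same order with smaller steps upward and a larger one downward. Its signal was 5754, 5934 and 5664 in sgControl and 9949, 10450 and 9735 with sg1. With sg2 it was 5746, 5630 and 5750, and with sg3 4282, 4867 and 4670. As for Krt8, sg1 stood above all other libraries, sg3 below them, and sg2 overlapped sgControl. Krt18 was 1.74-fold higher with sg1 (log2 fold change 0.80, SE 0.05, adjusted p = 3.94e-10, limma) and reduced 1.26-fold with sg3 (-0.33 on the log2 scale, SE 0.05, adjusted p = 4.58e-05, limma). With sg2 the difference was -0.02, with a 95% interval of -0.13 to 0.09 (adjusted p = 0.747, limma).

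**Figure D2:**
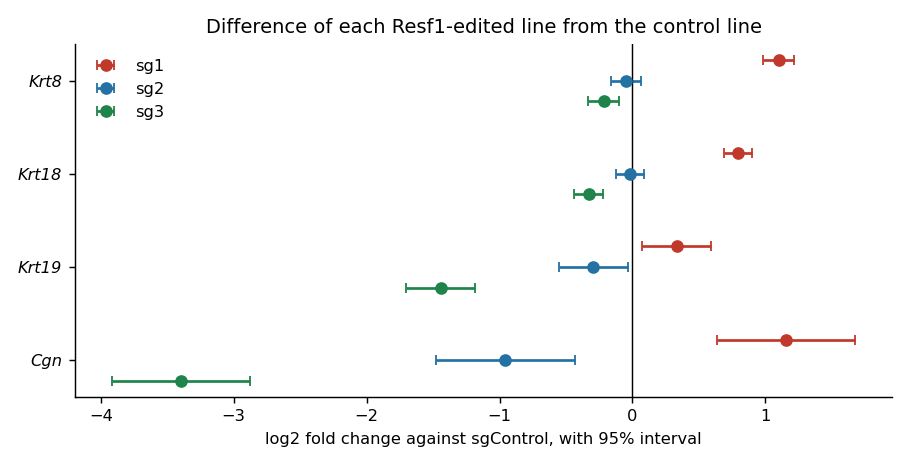
Log2 fold change of each member with each guide against sgControl, as points with 95% intervals from the fit over all 982 genes. Intervals for sg2 include 0 for Krt8 and Krt18, and the Cgn point with sg3 lies at -3.40.

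Because the chains pair in a filament, their ratio was taken within each library, where the size factor cancels. The Krt8 to Krt18 ratio of signals was 1.05, 1.08 and 1.09 in sgControl and 1.33, 1.35 and 1.30 with sg1. It was 1.02, 1.12 and 1.02 with sg2 and 1.17, 1.15 and 1.16 with sg3. The sg1 ratios were the highest and did not overlap any other group, the sg3 ratios lay between those of sg1 and those of sgControl, and sg2 spread across sgControl. Among the 9 knockout libraries the ratio differed by guide (exact permutation test, p = 0.00357, the smallest that the splits of these libraries into 3 lines can give). Against sgControl the log2 ratio was higher by 0.30 with sg1 and by 0.11 with sg3 and differed by -0.03 with sg2 (two-sided exact permutation p = 0.1, 0.1 and 0.6), and 3 libraries against 3 cannot give a p below 0.1. The ratio was thus higher than in sgControl both in the line where the pair rose and in the line where it fell. Which chain had more signal per transcript length depended on the reads of a Krt8 pseudogene, described below. Without them the ratio per length lay between 0.75 and 0.99 in the 12 libraries, and with them, an alternative chosen after seeing the data, between 1.02 and 1.38.

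With Krt19 added to the type I side and each signal divided by transcript length, the ratio of type II to type I keratin was 0.73 ± 0.02 (SD, n = 3) in sgControl, 0.92 ± 0.01 for the sg1 line, 0.73 ± 0.03 for sg2 and 0.82 ± 0.01 for sg3. With the pseudogene's signal added to Krt8 it was 1.00 ± 0.02, 1.27 ± 0.03, 0.99 ± 0.04 and 1.15 ± 0.01 in the same order. In both forms the order of the lines was that of the Krt8 to Krt18 ratio, since Krt19 is a small part of the type I signal.

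**Figure D3:**
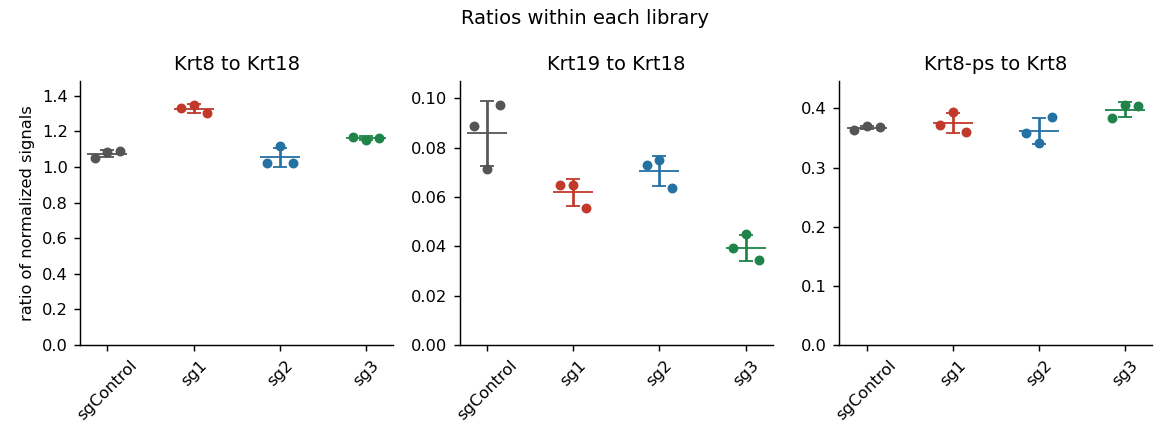
Ratios of normalized signals within each library for Krt8 to Krt18, Krt19 to Krt18 and the pseudogene Krt8-ps to Krt8, on axes from 0. Points are libraries, and lines and bars are the mean and SD of 3. The Krt8 to Krt18 ratio is highest with sg1 (1.30 to 1.35), and the Krt19 to Krt18 ratio is lowest with sg3 (0.03 to 0.04).

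Reads of Krt8 can also be assigned to Krt8-ps, a processed copy on chromosome 7 whose transcript aligned to that of Krt8 over 941 bases at 98.6% identity and which is itself in the table. Krt8-ps had a signal of 2202, 2375 and 2278 in sgControl and 4936, 5545 and 4554 with sg1. It was 2113, 2144 and 2274 with sg2 and 1919, 2277 and 2199 with sg3, and both ranges overlapped that of sgControl, so Krt8-ps did not show the lower sg3 range of Krt8. Its ratio to Krt8 lay between 0.34 and 0.41 in all 12 libraries, with 0.38 to 0.41 with sg3 above the 0.36 to 0.37 of sgControl. How shared reads were split between the copies is not given in the sources used here. When both values were added, an alternative chosen after seeing the data, the summed ratio to Krt18 was 1.47 ± 0.03 in sgControl, 1.83 ± 0.06 with sg1, 1.44 ± 0.05 with sg2 and 1.63 ± 0.01 with sg3 (SD, n = 3).

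The lincRNA Gm36026 overlaps the 5′ end of Krt8 by 271 bases on the opposite strand and lies between Krt8 and Krt18 in the annotation. It had a signal of 25.6, 11.8 and 19.1 in sgControl and 63.9, 70.9 and 66.4 with sg1, a log2 fold change of 1.84 (adjusted p = 1.61e-05, limma). With sg2 and sg3 its log2 fold changes were 0.55 and 0.63 (adjusted p of 0.103 and 0.0648, limma), where those of Krt8 were -0.05 and -0.22. Whether strand was used in the counting of the mouse libraries is not given in the sources used here, so reads of Krt8 and Gm36026 in the overlap cannot be told apart.

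The genes around Krt8 and Krt18 were also higher with sg1. The 3 nearest table genes before Krt8 were Dazap2, Slc4a8 and Scn8a, with log2 fold changes of 0.61, 0.72 and 0.69. The 3 after Krt18 were Tns2, Itgb7 and Rarg, with 0.77, 1.07 and 0.70. Of the 92 other chromosome 15 genes in the table, 82 had a log2 fold change above 0 with sg1, with a median of 0.61 and quartiles of 0.45 and 0.78, while the median over 876 genes of other chromosomes was 0.10. Krt8 lay 0.49 above the chromosome's median and Krt18 0.18 above it, and 12 and 22 of the 92 genes had a higher value than Krt8 and Krt18. The rise did not cover the whole chromosome: the first 10 table genes in chromosome order, singled out after their values were seen, lay between -0.20 and 0.22 with sg1. The part of the chromosome in the keratin result was not tested. The Myc row, in which reads of the chromosome 15 gene and of the transgene cannot be told apart, went the other way with sg1, at 9341 ± 142 against 17197 ± 1965 in sgControl (SD, n = 3; log2 fold change -0.87, adjusted p = 4.38e-08, limma).

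With sg3 the keratin pair fell while most of its neighbours did not. The median log2 fold change of the 92 other genes was 0.00386 with sg3, and 19 of them lay below Krt8 and 12 below Krt18. The first 10 genes in chromosome order, far from the keratins, lay between -0.84 and -0.13. Of the named neighbours, none fell with sg3: Slc4a8 and Scn8a were 0.54 and 0.32 higher on the log2 scale, and Tns2, Itgb7 and Rarg were at 0.02, -0.04 and 0.06 with adjusted p of 0.733, 0.567 and 0.478 (limma). With sg2 the median of the other genes was 0.03, and Krt8 and Krt18 stood at -0.05 and -0.02.

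**Figure D4:**
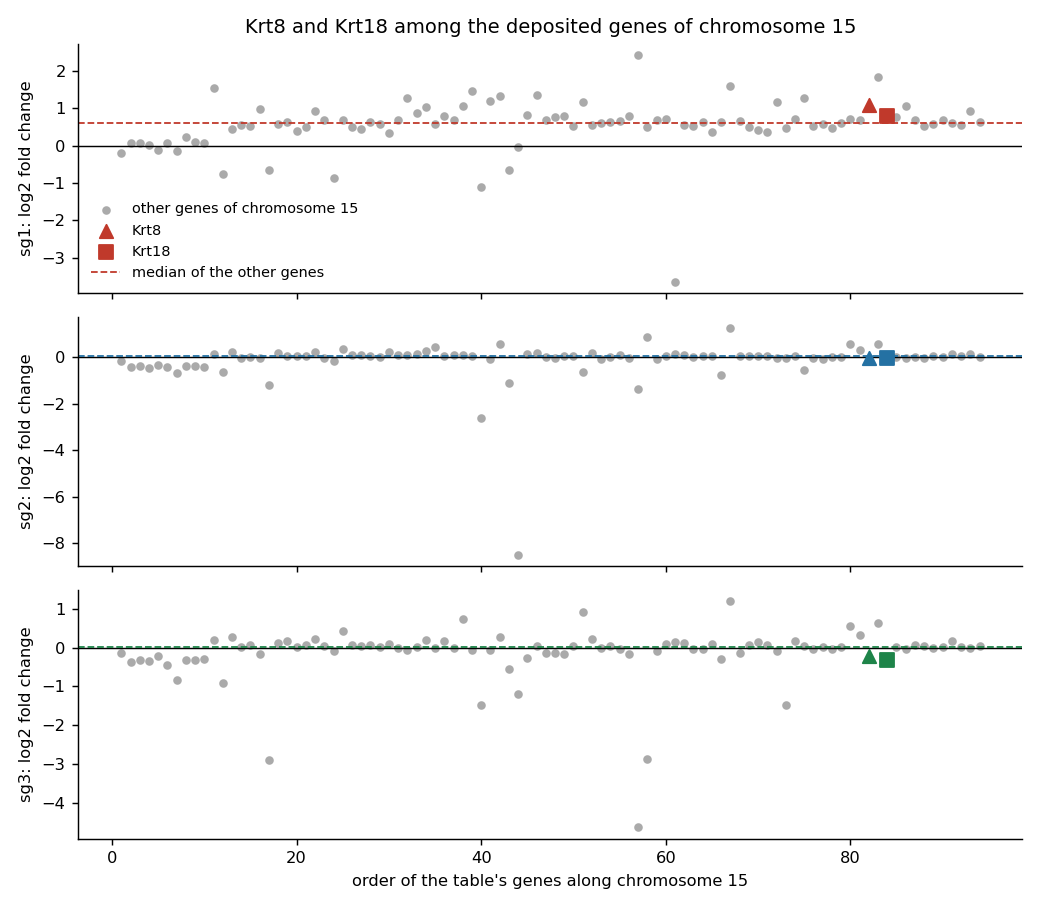
Log2 fold change against sgControl of the table's chromosome 15 genes in their order along the chromosome, 1 panel per guide. Grey points are the 92 other genes, the dashed line is their median, and the triangle and square are Krt8 and Krt18, which lie above the median of 0.61 with sg1 and below the median with sg3.

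Krt19, the further type I keratin, differed mainly in sg3. Its signal was 511, 423 and 551 in sgControl and 168, 218 and 161 with sg3, so that all sg3 libraries lay far below the control range. It was 647, 678 and 543 with sg1 and 419, 421 and 365 with sg2. The sg1 range overlapped that of sgControl, and the sg2 range lay just below it. Krt19 was reduced 2.72-fold with sg3 (-1.44 on the log2 scale, SE 0.12, adjusted p = 3.09e-08, limma). It was 1.54-fold higher with sg1 than with sg2 (adjusted p = 0.000244, limma) and 2.21-fold higher with sg2 than with sg3 (adjusted p = 6.11e-07, limma).

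The differences of Krt19 from sgControl with the other guides were small and depended on the settings. With sg1 it was 1.26-fold higher (log2 fold change 0.33, SE 0.12, adjusted p = 0.0183, limma), and this call was lost under each of 4 other scalings (log2 fold change 0.12 to 0.20, adjusted p 0.13 to 0.366; 0.0074 to 0.366 over all alternatives). With sg2 it was 1.23-fold lower (log2 fold change -0.29, SE 0.12, adjusted p = 0.0483, limma), and this call was lost in 10 of 23 alternatives. With the replicate number as a block the adjusted p was 0.0551.

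Within a library, the Krt19 to Krt18 ratio was 0.09, 0.07 and 0.10 in sgControl and 0.04, 0.04 and 0.03 with sg3, with 0.06, 0.06 and 0.06 with sg1 and 0.07, 0.07 and 0.06 with sg2. The type I keratins thus did not keep their proportion, and with sg3 Krt19 fell further than Krt18. The 3 nearest table genes on each side of Krt19 on chromosome 11 were Epop, Mllt6 and Pip4k2b before it and Hap1, Gm10039 and Acly after it. With sg3 these lay between -0.23 and -0.12 on the log2 scale, against -1.44 for Krt19.

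Cgn, the tight junction member, had the widest spread between lines. Its signal was 39.3, 50.8 and 44.8 in sgControl and 103, 110 and 90.1 with sg1. With sg2 it was 25.1, 23.9 and 19.2, and with sg3 4.66, 2.88 and 2.74. The 4 groups did not overlap for this gene, and how often this holds over the table was not counted. Cgn was 2.23-fold higher with sg1 (log2 fold change 1.16, SE 0.25, adjusted p = 0.000358, limma), 1.94-fold lower with sg2 (log2 fold change -0.96, SE 0.25, adjusted p = 0.00385, limma) and reduced 10.5-fold with sg3 (-3.40 on the log2 scale, SE 0.25, adjusted p = 3.38e-09, limma).

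Cgn rests on few reads. The estimated reads summed over 3 libraries were 143 in sgControl, 293 for sg1, 70 for sg2 and 10 for sg3. The ratio of these sums, corrected for the size factors and without a pseudocount, put Cgn 13.5-fold lower with sg3, with an exact 95% counting interval of 7.14 to 28.8 that covers counting error only. The sg2 ratio to sgControl was 0.50, with an interval of 0.37 to 0.67, and the sg1 ratio was 2.26, with an interval of 1.84 to 2.78. The intervals exclude 1 in each line. A transcript of the pseudogene BC021767, also on chromosome 3, aligned to that of Cgn over 1716 bases at 98.7% identity and was not among the 982 genes, so its share of these reads is not known here.

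The table genes nearest to Cgn on chromosome 3 were S100a1, S100a6 and S100a11 on one side and the pseudogene Rps10-ps1, Adamtsl4 and Ecm1 on the other. With sg3 they lay between -0.31 and 0.41 on the log2 scale, so no neighbour came near the -3.40 of Cgn. With sg1 Ecm1, which encodes a secreted matrix protein, was 1.65 higher on the log2 scale and Adamtsl4 1.01, beside 1.16 for Cgn.

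The equality of sg1, sg2 and sg3 was tested directly, as a contrast among the guide lines in the fit over all 12 libraries. The test over all genes was passed by 75.3% of the table, and by all 4 members, with adjusted p of 5.48e-13 for Krt8, 4.06e-12 for Krt18, 1.92e-09 for Krt19 and 8.17e-11 for Cgn (limma). By p-value they ranked 31, 44, 126 and 72 of 982. For each member the exact permutation test over the 9 knockout libraries gave p = 0.00357, the smallest possible. Pairwise, sg1 exceeded sg2 for all 4 members, which 40.9% of the table did, and sg1 exceeded sg3 for all 4, as 42.5% did. Signal was higher with sg2 than with sg3 for all 4 members, a direction that 17.1% of the table passed, but scaled to the table total neither Krt8 (0.069, adjusted p = 0.646, limma) nor Krt18 (0.21, adjusted p = 0.0776, limma) passed. The widest pairwise difference was that of Cgn between sg1 and sg3, at 4.55 on the log2 scale (95% interval 4.03 to 5.07). Such values of Cgn depend on the pseudocount, and with one of 5 this difference was 3.66 and that of sg3 from sgControl -2.57, both still called.

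The mean of the 3 guides against sgControl hid these differences. It was 0.28 for Krt8, 0.15 for Krt18, -0.47 for Krt19 and -1.07 for Cgn on the log2 scale. All of the table (100%) passed in that contrast, because the table appears to hold genes already chosen on one like it. These values are therefore a description only. Comparisons of a single guide line with sgControl use the same libraries, so that choice also bears on their p-values and on the shares called. The mean puts the keratin pair above the control although it was above it in 1 of the 3 lines, and it puts Cgn below although sg1 was higher.

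The genes whose signal was most like that of each member were found by Pearson's r of log2(signal + 1) over the 12 libraries, which share lines, so these values describe the pattern of the lines. For Krt8 they were 5031439G07Rik, Col18a1 and Ext1, each with r = 0.992, and 5031439G07Rik and Ext1 lie on chromosome 15. For Krt18 they were Pxdn (0.988), Cyth4 (0.987) and Krt8 (0.984). For Krt19 they were Rgma (0.982), 3110039I08Rik (0.970) and Plcg2 (0.969). For Cgn they were Fbln1 (0.986), Bst1 (0.981) and Celf4 (0.974).

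Among the members, r was 0.984 for Krt8 with Krt18 and 0.962 for Krt19 with Cgn, and between 0.697 and 0.851 for the pairs across. The members thus formed a keratin pair with its largest difference in sg1, and Krt19 with Cgn, whose largest difference was in sg3. Fbln1, which encodes the matrix protein fibulin, had the Cgn pattern over a wider range, with means of 79.0 in sgControl, 429 with sg1, 30.5 with sg2 and 2.40 with sg3.

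Other genes of the same structures were taken from lists of intermediate filament, keratin-binding, tight junction and cingulin-partner genes, most of which were not among the 982 genes. Beside the members, the only filament gene of 26 listed was Nes, which encodes nestin, an intermediate filament protein of progenitor and mesenchymal cells. Its signal was 151, 161 and 142 in sgControl, 2344, 2454 and 2082 with sg1, 935, 981 and 959 with sg2 and 5.82, 5.78 and 4.56 with sg3. Nes shared the rise with sg1 and the fall with sg3, by far more than the keratins, but with sg2 it rose (log2 fold change 2.65, adjusted p = 7.25e-13, limma) where no keratin did.

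Of the 22 listed keratin-binding and desmosome genes, 3 were in the table. With sg1 2 were higher and 1 lower, where 50.1% of the table was higher and 39.1% lower. With sg2 1 was lower, as was 29.4% of the table, and with sg3 1 was higher, as was 26.5%. Plec and Ppl, which encode the linkers plectin and periplakin, were 0.69 and 0.75 higher on the log2 scale with sg1, near Krt18 at 0.80, and neither passed with sg2 or sg3. Plec lies on chromosome 15. Dsc2, the desmosomal cadherin desmocollin, was lower with sg2, as were Cgn and, by a call that depended on the settings, Krt19. Dsc2 ran against the members with sg1 and sg3. Its signal was 199, 197 and 212 in sgControl, 2.13, 0.97 and 1.10 with sg1, 2.09, 6.97 and 4.36 with sg2 and 530, 533 and 604 with sg3. The sg1 line, with the highest keratins and Cgn, had at most 2 estimated reads of Dsc2 in a library, and the sg3 line had the most.

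Of 32 listed tight junction genes, Patj and Amotl1 were in the table beside Cgn. Patj, a scaffold of the Crumbs complex, was 1.10 higher on the log2 scale with sg1 (adjusted p = 0.000109, limma) and 0.59 higher with sg3 (adjusted p = 0.0223, limma), so its mean rose where Cgn fell. Its sg3 values were 41.9, 78.9 and 65.7 against 39.3, 43.5 and 36.2 in sgControl, so the first lay within the control range. The sg3 call was also lost when the values were scaled to the table total. Amotl1, an angiomotin, was 0.29 higher with sg1 (adjusted p = 4.77e-05, limma; 0.08 and 0.414 when scaled to the table total) and at 0.07 with both other guides (adjusted p of 0.244 and 0.207, limma). Of 16 cingulin partners, Myh9, the non-muscle myosin heavy chain, and Racgap1 were in the table, both on chromosome 15. They were 1.21 and 0.54 higher with sg1 and passed with neither other guide. Scaled to the table total, Racgap1 was 0.32 higher with sg1, still called, and Ppl, Myh9 and Racgap1 were called lower with sg2, as was 48.2% of the table. Racgap1 was also called lower with sg2 under the upper quartile (-0.11, adjusted p = 0.04, limma).

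**Figure D5:**
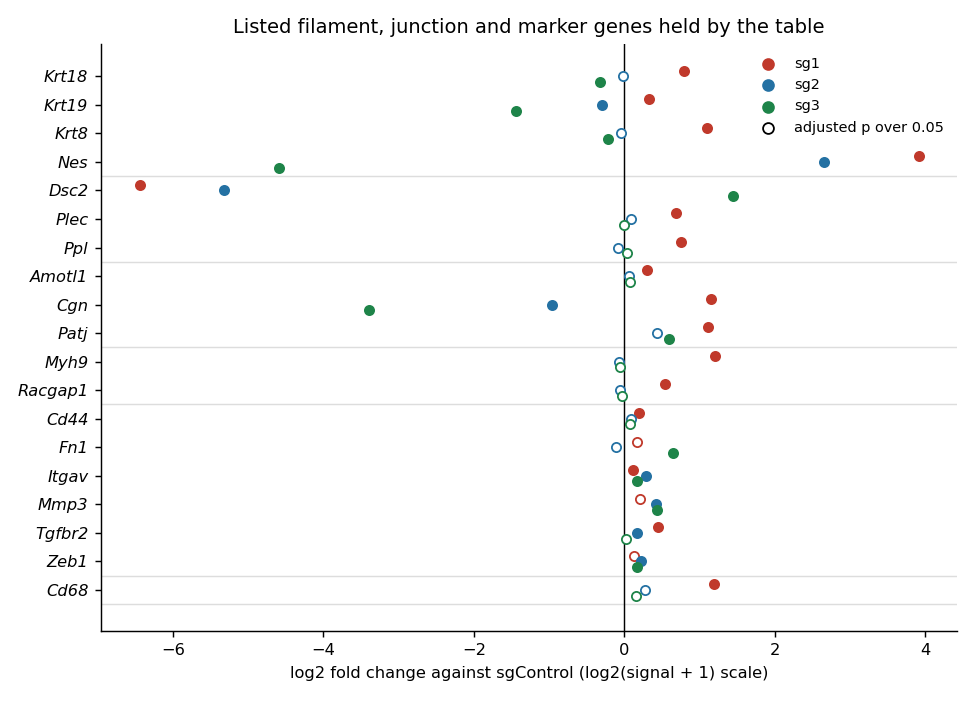
Log2 fold change against sgControl of the listed genes held by the table, coloured by guide, with open points where the adjusted p was over 0.05. Horizontal lines separate the lists. Nes and Dsc2 span the widest range, and Dsc2 is lowest with sg1, where Krt8, Krt18 and Cgn are highest.

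Mesenchymal and other cell type markers were looked at beside the keratins. Of 50 mesenchymal markers 6 were in the table, namely Cd44, Fn1, Itgav, Mmp3, Tgfbr2 and Zeb1. With the authors' scaling the number called higher was 3 of 6 in the sg1 line, 4 in the sg2 line and 4 in the sg3 line, where 50.1%, 30.2% and 26.5% of the table was higher. None was lower in these lines, where 39.1%, 29.4% and 33.4% of the table was. Scaled to the table total, 1, 1 and 2 were higher, where 35.9%, 13.5% and 14.5% of the table was, and 1 was lower with sg2, where 48.2% of the table was. The medians of the 6 genes were 0.18, 0.19 and 0.17 on the log2 scale, where those of the whole table were 0.20, -0.02 and -0.03. Against the median of the table they thus stood at -0.02 with sg1, 0.21 with sg2 and 0.19 with sg3. Rescaling moves every gene of a library nearly alike, so these differences could not change with it and it is no check on them. Tgfbr2, a receptor of transforming growth factor beta, was 0.45 higher with sg1 (adjusted p = 3.43e-06, limma; 0.23 to 0.31 under 4 other scalings, with the call kept) and at 0.02 with sg3. Its call with sg2, at 0.17, was lost under 3 of those scalings. Fn1, which encodes fibronectin, was 0.65 higher with sg3 (adjusted p = 2.27e-06, limma), where its values with sg1 and sg2 were 0.17 and -0.11. None of the 14 basal markers was in the table. Of 14 markers of other cell types only Cd68, which is expressed by macrophages and at lower levels by other cells, was in the table, and it was 1.19 higher with sg1 (adjusted p = 5.04e-07, limma), the line with the highest keratins. Its part in the keratin result was not tested.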

How the data were processed

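RNA sequencing of 12 libraries was used. The authors deposited a normalized signal per gene, read here from the values as estimated counts divided by 1 size factor per library. Under 100 estimated reads, 79.9% to 84.6% of a library's values lay within 0.05 reads of a whole number, against 10.0% by chance. The submitters' processing notes name Partek, STAR 2.7.8a and DESeq2. The mouse build, annotation and counting are not given in the sources used here, and library depth is unknown. The deposited genes summed to 1917988 to 2781425 estimated reads per library, and no replicate pair was a duplicate. Resf1 was not analysed here.

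Because the values are not counts, limma 3.58.1 (R 4.3.3; lmFit, eBayes with trend and robust) was fitted to log2(signal + 1), on which folds of low genes are understated, over all 982 genes and 12 libraries, with two-sided Benjamini-Hochberg adjusted p and a threshold of 0.05. It was tested on simulated data. Symbols and gene order came from GENCODE M21 (972 genes matched) and the windows from RefSeq. Transcripts were aligned with blastn (at least 90% identity over 200 bases). Alternatives covered scaling, pseudocounts, a filter at a mean of 50, the spread model, a replicate block, chromosome 15 and each library left out.

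The members, lists and motifs were chosen with earlier results of these data known. Besides members, the rule named listed genes, the 3 genes most alike, the 3 nearest on each side, and Myc. In 3 lists 1 gene stands under both an older and a newer symbol. Replicate numbers correlated over 0.1 in all 3 pairs for sgControl with sg1 and with sg2, and in none with sg3. What the numbers mark is not stated in the labels. The labels' treatment text describes a knockdown in human cells, which is not that of these lines.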

Additional observations from a re-analysis of the deposited data

Results flagged for a closer look

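The lines carrying different guides differed for each member in a direct test of their equality, with adjusted p-values in limma of 5.48e-13 for Krt8, 4.06e-12 for Krt18, 1.92e-09 for Krt19 and 8.17e-11 for Cgn. That test was passed by 75.3% of the table. The exact permutation test gave p = 0.00357 for each, the smallest it can give. Krt8 and Krt18 differed from sgControl upward in sg1 and downward in sg3, and Cgn ranged from 101 ± 10.2 with sg1 to 3.42 ± 1.07 with sg3 (SD, n = 3).

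The Krt8 to Krt18 ratio within a library, on which the size factor has no bearing, also differed between the lines (exact permutation p = 0.00357, again the smallest possible).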

How the results depend on the processing

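Over 23 alternatives, 12 of which left out 1 library, 728 values of the members' tests were computed. The side of the threshold was kept in 699, with the direction except for Krt18 with sg2, which had no call and went from -0.02 to 1.24e-05 without sgControl replicate 2, while 26 lost the call, 2 gained one and 1 reversed. The rises of Krt8 and Krt18 with sg1, the falls of Krt8, Krt18 and Krt19 with sg3, and the equality tests of all members kept their calls in every alternative in which the gene was tested, as did the Cgn differences. Cgn was not tested under the filter at a mean of 50. Rescaling over the table moved the median of all genes by -0.13 to -0.21 (log2) with sg1, and under the table total by -0.20 with sg2 and -0.10 with sg3. Against that shift, Krt8 with sg1 stayed between 0.89 and 1.14 over all alternatives and Krt18 between 0.58 and 0.82.

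Krt19 with sg1 was 0.20 under TMM, 0.18 under median of ratios, 0.12 under the table total and 0.19 under the upper quartile, each without a call. Krt8 in sg2 against sg3 lost its call at 0.14 under median of ratios, 0.069 under the table total, 0.17 with plain eBayes and 0.13 with Krt8-ps added, the last chosen after seeing the data. Under the table total Krt8 and Krt18 were called lower with sg2 (-0.25 and -0.22), Krt18 in sg2 against sg3 was 0.21 without a call, and the mean of the guides was 0.11 for Krt8 and -0.024 for Krt18, the latter reversed. Krt18 had 0.081 there under median of ratios. The table total also moved the counts for sg2 to 133 higher and 473 lower and that for sg3 to 142 higher. Krt19 with sg2, at -0.29, had no call with plain eBayes (adjusted p 0.0918) or with the replicate block (0.0551), which changed no other call of a member. Its adjusted p ran from 0.000214 to 0.176 over all alternatives. The log2 Krt8 to Krt18 ratio with sg3 was 0.15 with Krt8-ps added. The causes were not tested.

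Leaving out 1 library, Krt19 with sg1 ranged from 0.22 to 0.43 and lost its call without sgControl replicate 2 (0.22), sg1 replicate 1 (0.30) or sg1 replicate 2 (0.27). Krt19 with sg2 ranged from -0.40 to -0.21 and lost it without sgControl replicate 1 (-0.27) or 3 (-0.21), sg2 replicate 1 (-0.33), 2 (-0.33) or 3 (-0.23), and, at -0.29, without sg1 replicate 1 or 2 or sg3 replicate 1. Krt8 in sg2 against sg3 ranged from 0.12 to 0.20 and lost it without sg2 replicate 2 (0.14) or sg3 replicate 1 (0.12). Of 144 list counts under other scalings 20 differed from those with the authors' scaling, 10 of them under the table total. Cgn with sg3 ranged from -3.59 to -3.29 without 1 library and was -2.57 with a pseudocount of 5. Depth limits Cgn with sg3, at 10 estimated reads in all.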
